A study of Mus musculus with 8 samples.

Results

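The genes described here are 10 muscle-expressed members of the ASB family (ankyrin repeat and SOCS box proteins), *Asb2*, *Asb4*, *Asb5*, *Asb8*, *Asb10*, *Asb11*, *Asb12*, *Asb14*, *Asb15* and *Asb16*. They were taken by symbol from an array table that names 22664 gene symbols, 18 of them *Asb* genes, and the other 8 *Asb* genes serve as a comparison. Rows were to be chosen by their mean signal where a gene had more than 1 probe set, but each of the 10 had 1, so the signal decided nothing. The 10 names were put together with results of this same comparison in view, so their differences, tests and shared direction are a description of these genes and carry no weight of their own. All were measured in whole gastrocnemius (GAS) muscle of male C57/Bl6j mice at 22 weeks of age. One group of 4 muscles had received an adeno-associated virus (AAV) that expresses a hairpin RNA (sh-RNA) directed at MYTHO (MYTHO-KD) at about 10 weeks of age, 3 months before collection. The other 4 muscles, of the opposite legs, had received an AAV with a scramble sh-RNA (scramble), so both groups carry a virus and a U6-driven hairpin. The U6 promoter is active in every cell type, so the knockdown is limited to fibres only as far as the virus is.

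ASB proteins are the substrate adaptors of a class of ubiquitin ligases. Their ankyrin repeats hold the protein to be degraded, while the SOCS box at the other end binds elongin B and elongin C and, through them, the scaffold cullin 5 with its RING partner RNF7. Several ASB genes are transcribed mainly in skeletal and cardiac muscle, and the muscle form of ASB2 is known for sending filamins to the proteasome as muscle cells differentiate.

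The sh-RNA target is listed by its earlier symbol *D230025D16Rik*. The authors' average for it was 7.71 (log2, SD 0.66) in MYTHO-KD and 10.02 (SD 0.37) in scramble, which leaves 20.2% of the scramble signal (95% interval 12.7 to 31.9%; adjusted p = 0.0138, limma). Only group averages and SDs were used, so the values of single muscles cannot be shown and no leg could be matched to its partner. Signals are on the log2 scale after SST-RMA, the array maker's normalization, which brings arrays to a common distribution and stretches low signals. Differences are MYTHO-KD minus scramble, tested with limma's moderated statistic and adjusted over all 22206 probe sets. The p-values measure the spread between muscles. They and the intervals treat all muscles as independent, although the groups came from opposite legs. The kind of average taken is not stated either, so the p-values are approximate. The 18 fibre markers of the labelled tissue had averages between 17.58 and 19.93 in both groups and a median difference of -0.015; 12 of them had an average above 19, and 5 were at the top of the scale in both groups, where a change cannot be seen. Fibre markers went both ways: at an unadjusted p under 0.05, *Mb* (0.93), *Myh1* (0.59) and *Myh2* (0.41) were higher and *Eno3* (-0.32) lower, and none passed the adjustment in limma's test.

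All 10 macrophage markers (median 0.695), all 8 fibroblast markers (median 0.77) and all 6 endothelial markers (median 0.45) had higher averages in MYTHO-KD. Higher averages were found for 46.9% of all probe sets. Macrophage averages ran from 6.35 to 9.56 in scramble and from 6.73 to 11.11 in MYTHO-KD, fibroblast averages from 6.89 to 16.58 and from 7.07 to 16.86, and endothelial averages from 7.83 to 12.85 and from 8.01 to 13.22, so none of these markers was at the floor of 3.18. Past 2-fold with an unadjusted p under 0.05 were the macrophage genes *Cd68* (2.53), *Lyz2* (1.94) and *C1qb* (1.27) and the matrix genes *Bgn* (1.94), *Lum* (1.49) and *Col3a1* (1.43). Of these, *Cd68*, *Lyz2*, *Bgn* and *Lum* rose at an adjusted p under 0.05 (limma). Among all probe sets, 0.860% were higher past 2-fold with that unadjusted p. No endothelial marker was, and 2 of the 6 were higher at the unadjusted p alone, against 6.48% of all probe sets. The median was 0.18 over 7 satellite cell and regeneration genes, -0.06 over 4 Schwann cell genes and 0.16 over 7 denervation genes. Within these lists, the fusion gene *Tmem8c* (1.77), the embryonic myosin *Myh3* (1.27), *Runx1* (1.22) and the acetylcholine receptor subunit *Chrna1* (1.07) were past 2-fold with an unadjusted p under 0.05, while *Myh8* stood at the top of the scale in both groups. In whole-muscle RNA, fewer cells of a type and less RNA per cell cannot be told apart, and the part of these markers in the ASB values was not tested.

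Of the 10 ASB genes, 9 had a lower average in MYTHO-KD and 1, *Asb12*, a higher one, against 51.4% and 46.9% of all probe sets. The median difference was -0.52 (log2), against -0.01 over all probe sets, whose quartiles were -0.19 and 0.17. No member passed an adjusted p under 0.05 in limma's test, where 0.275% of all probe sets did and 0.0946% did so with a lower average. With the adjusted p set at 0.1, *Asb5* and *Asb14* were lower (2 members), against 0.324% of all probe sets. At an unadjusted p under 0.05, 5 members were lower (*Asb4*, *Asb5*, *Asb11*, *Asb14* and *Asb15*) and 0 higher, against 5.52% and 6.48% of all probe sets. Without moderation or with unequal variances *Asb4* was lost and 4 were lower. In those settings 2328 and 2001 of all 22206 probe sets passed that p in either direction. At 2-fold with an unadjusted p under 0.05, the threshold of the methods, *Asb14* alone was called lower, where 0.257% of probe sets were. At 1.5-fold there were 4 (*Asb5*, *Asb11*, *Asb14* and *Asb15*), against 2.25% of probe sets. All 10 were marked as expressed in both groups by the authors' software, as were 21222 of all 22206 probe sets. The mark therefore does not set these genes apart.

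**Figure D1:**
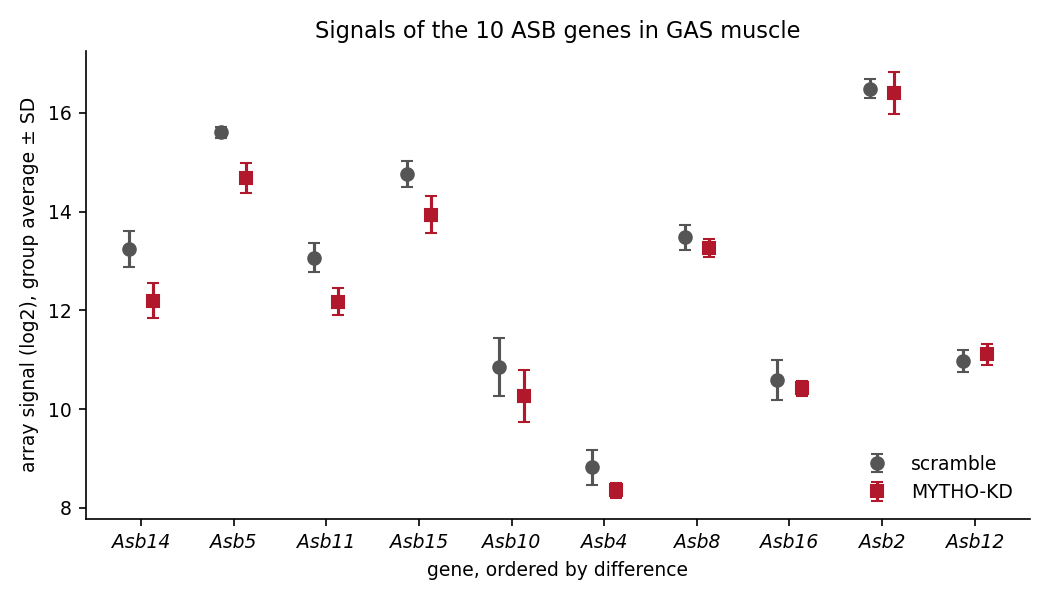
Array signal (log2) of the 10 ASB genes in scramble (grey circles) and MYTHO-KD (red squares) GAS muscles; points are the authors' group averages of 4 arrays and bars their SDs, and levels of different genes are not comparable. For *Asb14*, *Asb5*, *Asb11* and *Asb15* the bars do not meet, while those of *Asb2*, *Asb4*, *Asb8*, *Asb10*, *Asb12* and *Asb16* overlap.

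*Asb14*, *Asb5*, *Asb11* and *Asb15* made up the low end, with between 48.3% and 56.3% of the scramble signal left. *Asb14*, a gene known mainly for its transcription in muscle, averaged 13.25 (SD 0.36) in scramble and 12.20 (SD 0.35) in MYTHO-KD. Its difference of -1.05 (standard error 0.228, 95% interval -1.55 to -0.55, adjusted p = 0.0903, limma) was the lowest of the family, and 0.225% of all probe sets were as low or lower. *Asb5*, first described in growing arteries and abundant in muscle, averaged 15.61 in scramble with an SD of 0.11, and 14.68 in MYTHO-KD with an SD of 0.3. Its difference was -0.93 (standard error 0.181, interval -1.33 to -0.53, adjusted p = 0.0652, limma), the smallest adjusted p of the 10. In units of spread the averages of *Asb5* were the farthest apart, at 2.27 times the sum of the SDs of the groups.

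*Asb11*, whose product sits at the endoplasmic reticulum and whose fish relative acts on progenitor cells, averaged 13.07 (SD 0.3) in scramble and 12.18 (SD 0.28) in MYTHO-KD. The difference was -0.89 (standard error 0.203, interval -1.33 to -0.45, adjusted p = 0.1, limma), which leaves 54.0% of the signal. *Asb15*, linked to growth and differentiation of muscle cells, averaged 14.77 (SD 0.26) in scramble and 13.94 (SD 0.37) in MYTHO-KD. The difference was -0.83 (standard error 0.214, interval -1.3 to -0.36, adjusted p = 0.147, limma). The averages of these 4 genes lay farther apart than the sum of their SDs, which was true of 3.96% of all probe sets in the lower direction. Each of the 4 intervals overlapped the other 3, so no order among them is shown.

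**Figure D2:**
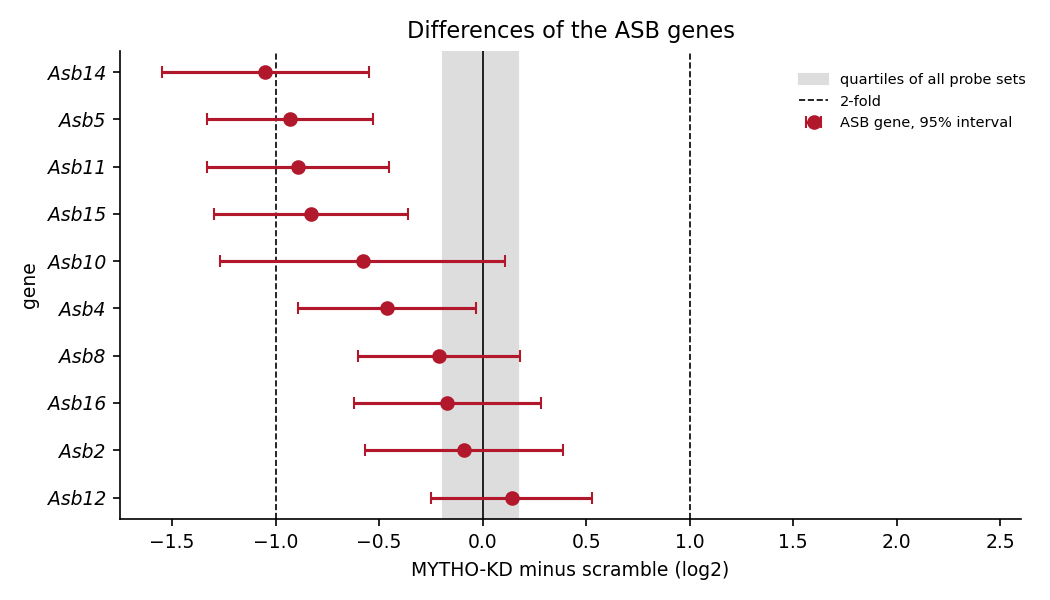
Difference between MYTHO-KD and scramble (log2) for each ASB gene, with 95% intervals from limma's moderated variance; the grey band spans the quartiles of all 22206 probe sets and dashed lines mark 2-fold. The intervals of *Asb14*, *Asb5*, *Asb11* and *Asb15* lie wholly below the band, and those of *Asb2*, *Asb8*, *Asb16* and *Asb12* cross 0 and stay inside 2-fold.

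*Asb10* and *Asb4* lay between. *Asb10*, a gene studied in human glaucoma, averaged 10.85 in scramble and 10.27 in MYTHO-KD, but its SDs of 0.59 and 0.53 were the largest of the 10. The difference of -0.58 had an interval from -1.27 to 0.11 (adjusted p = 0.502, limma), so a 2-fold fall and no fall were both inside it. *Asb4*, an imprinted gene expressed from the maternal copy and known from endothelium and placenta, averaged 8.82 (SD 0.36) in scramble and 8.36 (SD 0.15) in MYTHO-KD. Its difference of -0.46 (interval -0.89 to -0.03) had an unadjusted p = 0.0387 and an adjusted p = 0.385 in limma's test. The 6 endothelial markers had higher averages in the same muscles, 2 of them at an unadjusted p under 0.05 (limma). Whether endothelial cells had a part in the *Asb4* value was not tested.

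The remaining members had differences between -0.21 and 0.14. *Asb2*, whose muscle form degrades filamins and which lowers muscle mass when raised in mice, averaged 16.49 (SD 0.19) in scramble and 16.40 (SD 0.43) in MYTHO-KD. The difference of -0.09 had an interval from -0.57 to 0.39 (adjusted p = 0.926, limma). *Asb8* averaged 13.48 (SD 0.26) and 13.27 (SD 0.18), a difference of -0.21 (interval -0.6 to 0.18). *Asb16* averaged 10.59 (SD 0.4) and 10.42 (SD 0.15), a difference of -0.17 (interval -0.62 to 0.28). For *Asb12* the averages were 10.97 (SD 0.22) and 11.11 (SD 0.21), a difference of 0.14 (interval -0.25 to 0.53). In each of these 4 genes the averages lay closer together than the sum of the SDs. Their intervals leave room for modest changes in either direction and not for a 2-fold one.

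The 10 genes lie on 8 chromosomes, with *Asb4* and *Asb15* on chromosome 6 and *Asb11* and *Asb12* on X. Positions are those of the authors' table (mm10) and lie within 1 kb of the RefSeq starts for all 10. *Asb5* spans chr8:54550331-54587837, *Asb11* chrX:164436994-164459170, *Asb14* chr14:26894557-26915258 and *Asb15* chr6:24528144-24573164, all on the plus strand. To show what lies upstream of the 4 genes with the lowest differences, the bases before the RefSeq start are given below, in mm10, up to 250 bases, ending at the table's start for *Asb14* and beginning after the nearby gene *Ndufa5* for *Asb15*. Capitals mark matches, on either strand, to an E-box (CANNTG, bound by myogenic factors such as MyoD), a MEF2 site, a CArG box (bound by SRF) or an MCAT element (CATTCC, bound by TEAD factors).
*Asb5* (chr8:54550081-54550330, plus strand): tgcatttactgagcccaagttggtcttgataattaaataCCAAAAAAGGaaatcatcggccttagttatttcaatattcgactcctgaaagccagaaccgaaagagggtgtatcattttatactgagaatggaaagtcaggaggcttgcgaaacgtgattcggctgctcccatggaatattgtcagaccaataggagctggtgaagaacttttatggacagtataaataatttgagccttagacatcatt
*Asb11* (chrX:164436744-164436993, plus strand): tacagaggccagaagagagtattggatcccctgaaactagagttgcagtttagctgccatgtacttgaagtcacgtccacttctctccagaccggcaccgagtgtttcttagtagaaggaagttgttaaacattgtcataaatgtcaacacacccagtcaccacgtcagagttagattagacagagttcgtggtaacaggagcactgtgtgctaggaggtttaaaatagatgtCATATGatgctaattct
*Asb14* (chr14:26894364-26894556, plus strand): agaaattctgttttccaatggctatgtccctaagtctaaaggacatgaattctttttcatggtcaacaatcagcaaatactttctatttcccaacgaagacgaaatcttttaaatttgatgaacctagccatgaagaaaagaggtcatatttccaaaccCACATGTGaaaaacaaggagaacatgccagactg
*Asb15* (chr6:24528014-24528143, plus strand): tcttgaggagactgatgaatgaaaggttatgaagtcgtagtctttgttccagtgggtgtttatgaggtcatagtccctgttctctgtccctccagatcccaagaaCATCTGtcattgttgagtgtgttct

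All 10 members had a RefSeq window of 250 bases before the start, and the window nearest the table's start was searched. E-box letters were found in 8 of the 10 windows and in 66.2% of all 32851 windows. A MEF2 match was found in 3 windows, those of *Asb12*, *Asb14* and *Asb16*, and in 2.92% of all windows. CArG letters were found in the windows of *Asb2* and *Asb5* and in 1.47% of all windows, and an MCAT match in that of *Asb10* alone, against 12.6% of all. The MEF2 and CArG matches are shown with the 10 bases on either side, the match in capitals, because they set genes of both kinds side by side.
*Asb14* MEF2 match (chr14:26894574-26894603, plus strand): tatagtaaagCTATTTATAAtggtcaccgg
*Asb12* MEF2 match (chrX:95478158-95478187, minus strand): ggagggcagaCTAAAAATAGccacctagaa
*Asb16* MEF2 match (chr11:102268683-102268712, plus strand): agtgaggggcCTATTTATAGcctcagctgt
*Asb5* CArG match (chr8:54550110-54550139, plus strand): taattaaataCCAAAAAAGGaaatcatcgg
*Asb2* CArG match (chr12:103356046-103356075, minus strand): agaaacatacCCATATATGGgctccatgtc
The MEF2 match began 30 bases before the RefSeq start in *Asb14*, 48 in *Asb12* and 58 in *Asb16*. In *Asb14* that places it inside the table's gene model, after the stretch shown above. In *Asb14* and *Asb16* it overlapped the letters TATAAA on the reverse strand. That TATA box pattern was found in 4 member windows, those of *Asb5*, *Asb14*, *Asb15* and *Asb16*, and in 12.4% of all windows. For *Asb15* the match began 167 bases before the RefSeq start, inside *Ndufa5* and ahead of the stretch shown above. Among the 3 genes with the MEF2 match, *Asb14* had the lowest difference of the family (-1.05), and *Asb16* (-0.17) and *Asb12* (0.14) were near 0. The CArG match likewise stood before *Asb5* (-0.93) and *Asb2* (-0.09). *Asb11* and *Asb15*, both among the 4 lowest, held E-box letters and no MEF2, CArG or MCAT match.

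The nearest listed gene on either side of each member was set beside it. Whether whole neighbourhoods shifted was not tested, because the nearest genes alone cannot show it. The 20 neighbours had a median difference of -0.02. At an unadjusted p under 0.05 (limma), 2 were higher and 0 lower, against 6.48% and 5.52% of all probe sets. *Asb5* lies between *Spcs3* (difference -0.01) and *Spata4* (0.08), and *Asb14* between *Dnah12* (-0.08) and *Appl1* (-0.07). *Asb11* has *Piga* (0.28) on one side and its relative *Asb9* (-0.22, unadjusted p = 0.217, limma) 38.7 kb away on the other. All 6 of these neighbours had an unadjusted p above 0.05, and several, such as *Spata4* with averages of 4.46 and 4.54, were dim.

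*Asb15* had the most uneven surroundings. Its start lies 0.131 kb from that of *Ndufa5*, a complex I subunit read in the opposite direction, which averaged 14.12 (SD 0.26) in scramble and 14.19 (SD 0.24) in MYTHO-KD, a difference of 0.07 (adjusted p = 0.935, limma). On the other side, 24.6 kb away, *Lmod2*, an actin filament nucleator of striated muscle, averaged 12.25 (SD 0.7) in scramble and 13.97 (SD 0.58) in MYTHO-KD. Its difference of 1.72 (standard error 0.353, adjusted p = 0.0754, limma) was opposite in sign to that of *Asb15*. The other neighbour past the unadjusted threshold was *Pon2*, 84.9 kb from *Asb4*, which was higher by 0.50 where *Asb4* was lower.

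**Figure D3:**
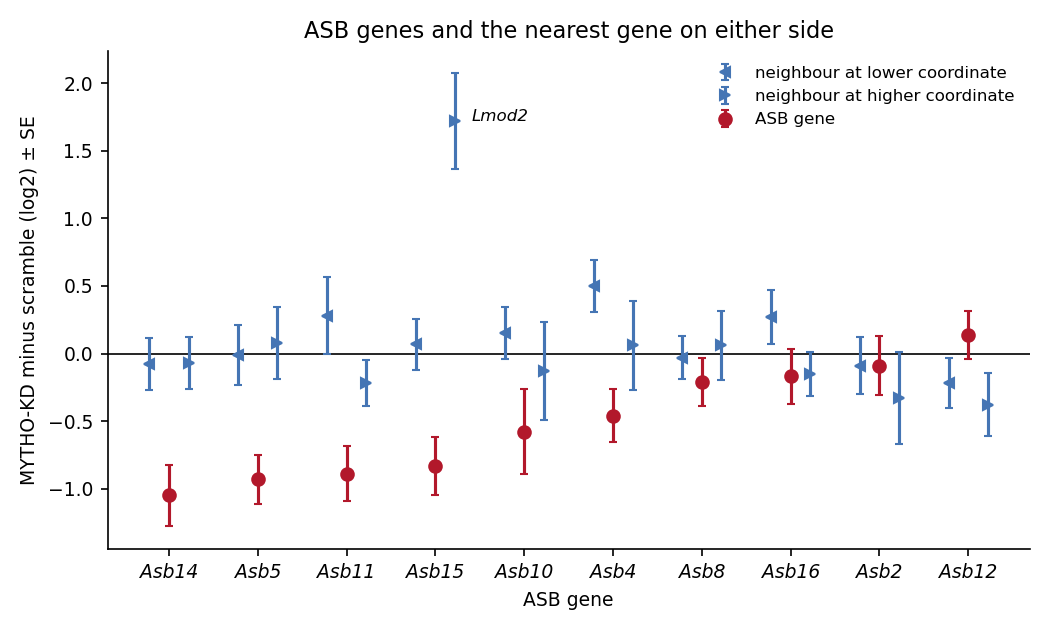
Difference between MYTHO-KD and scramble (log2, bars are standard errors) for each ASB gene (red circles) and the nearest gene of the array table at lower and higher coordinates (blue triangles). The neighbours of *Asb14*, *Asb5* and *Asb11* lie between -0.22 and 0.28, and *Lmod2* beside *Asb15* stands at 1.72.

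The 8 other *Asb* genes had a median difference of -0.045. Of them 4 had higher and 4 lower averages, against 46.9% and 51.4% of all probe sets. Only *Asb13* passed an unadjusted p under 0.05, lower by 0.39 (adjusted p = 0.407, limma), where 5.52% of all probe sets were lower. It averaged 10.71 (SD 0.16) in scramble and 10.32 (SD 0.24) in MYTHO-KD. *Asb1* had a difference of -0.46 (unadjusted p = 0.0792) and *Asb7* of 0.24, with an SD of 0.67 in MYTHO-KD. *Asb18*, which is also muscle-rich, differed by -0.11 (interval -0.64 to 0.42). Among 17 other genes with a SOCS box, from the SOCS, SPSB, WSB and RAB40 families and *Neurl2*, the median was 0.07. Of these, *Cish*, a cytokine-induced inhibitor of STAT5 signalling, was higher by 0.48 (unadjusted p = 0.0262, limma), *Spsb1* differed by 0.63 (unadjusted p = 0.0609) and *Wsb2* by 0.48 (unadjusted p = 0.118), and none passed the adjustment.

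The ligase core that ASB proteins plug into showed no common direction. The elongin genes, listed by the older symbols *Tceb1* (elongin C) and *Tceb2* (elongin B), differed by 0.04 (interval -0.33 to 0.41) and 0.21 (interval -0.31 to 0.73). *Cul5*, the scaffold, averaged 14.10 (SD 0.12) in scramble and 13.52 (SD 0.11) in MYTHO-KD. Its difference of -0.58 (standard error 0.152, interval -0.91 to -0.25, adjusted p = 0.153, limma) leaves 66.9% of the signal, and its averages lay farther apart than the sum of the SDs. *Rnf7*, the RING partner of cullin 5, pointed the other way, with 11.71 (SD 0.38) in scramble and 12.20 (SD 0.41) in MYTHO-KD, a difference of 0.49 (unadjusted p = 0.0678, limma).

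Among all 20 listed genes of the core and its regulators the median was 0.045. At an unadjusted p under 0.05 (limma), 2 were lower and 1 higher, against 5.52% and 6.48% of all probe sets. The second lower gene was *Dcun1d1*, a helper of cullin neddylation, at -0.46 (unadjusted p = 0.0256, limma). The higher one was *Ube2m*, which conjugates NEDD8 to most cullins, at 0.55 (adjusted p = 0.179). *Ube2f*, the NEDD8 conjugating enzyme that works with RNF7 on cullin 5, differed by 0.15 (unadjusted p = 0.348).

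Proteins described as bound by or degraded through an ASB protein were read at the transcript level only. *Flnc* and *Flna*, which encode filamins degraded through ASB2, had higher averages in MYTHO-KD. *Flnc*, the muscle filamin of the Z-disc and membrane, averaged 9.80 (SD 0.38) in scramble and 10.94 (SD 0.38) in MYTHO-KD. Its difference of 1.14 (standard error 0.238, interval 0.62 to 1.66, adjusted p = 0.0776, limma) passed 2-fold and the unadjusted threshold, as 0.860% of all probe sets did in that direction. *Flna* was higher by 0.63 (unadjusted p = 0.00668, limma). It is also transcribed in fibroblasts and endothelium, whose markers had higher averages in the same muscles, and the share of those cells in the value was not tested.

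*Des*, which encodes desmin, another protein degraded through ASB2, differed by 0.14 (interval -0.19 to 0.47). Over the 10 such genes reported the median was 0.065, with 6 higher and 4 lower averages. Among all probe sets 46.9% were higher and 51.4% lower. *Hif1an*, whose product is a hydroxylase that modifies ASB4, differed by -0.16. *Tbk1*, *Bik*, *Ckb*, *Irs4*, *Tnfrsf1b* and *Sh2b2*, listed for further ASB proteins, had differences between -0.07 and 0.13, and none of these 7 passed an unadjusted p under 0.05.

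A second family of muscle adaptors, the Kelch proteins that work with cullin 3, was set beside the ASB genes. The 9 Kelch genes and *Cul3* had a median of 0.195, with 6 of the 10 higher in MYTHO-KD, against 46.9% of all probe sets. *Klhl41*, a sarcomere-associated adaptor, was higher by 0.44 (unadjusted p = 0.0162, limma) and *Klhl31* lower by 0.43 (unadjusted p = 0.0217). *Klhl38* had the lowest value of the list, -0.76, with a scramble SD of 0.91 (unadjusted p = 0.0603). No difference between the ASB and Kelch families was tested, because the members were chosen with their values known.

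**Figure D4:**
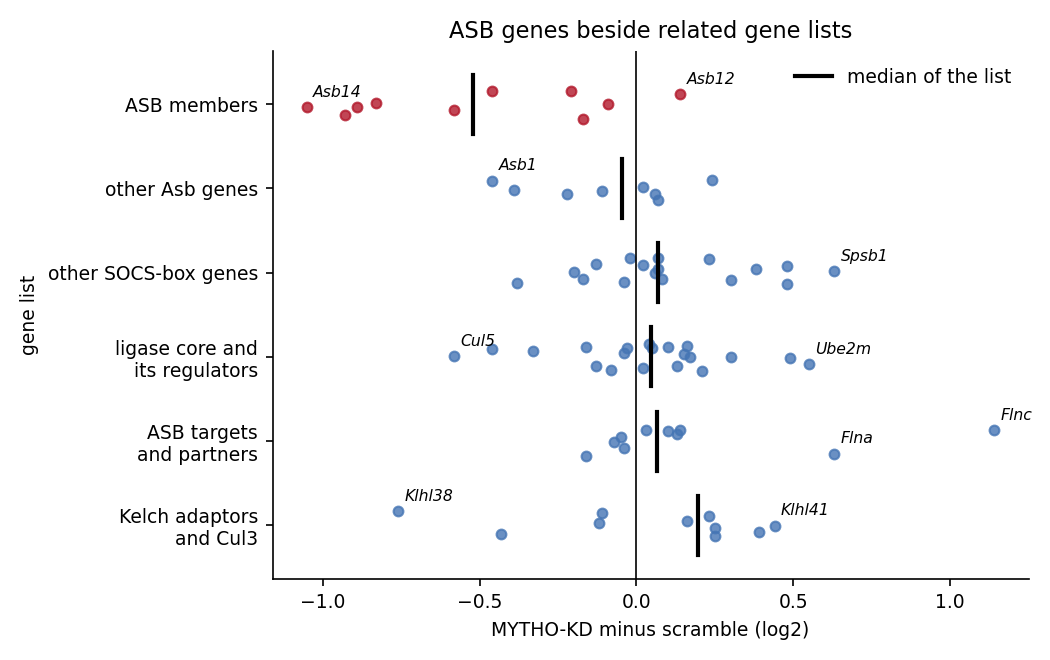
Difference between MYTHO-KD and scramble (log2) for the 10 ASB genes (red) and for related gene lists (blue), 1 point per gene with the list median as a black bar; vertical scatter within a list has no meaning. The ASB median lies at -0.52 and the other list medians between -0.045 and 0.195, with *Flnc* at 1.14 and *Cul5* at -0.58 as single genes.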

How the data were processed

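Total RNA of GAS muscles was hybridized to Clariom S Mouse arrays, 4 per group. The authors normalized the arrays (SST-RMA, Transcriptome Analysis Console, default parameters; the submitters' processing notes name Affymetrix Expression Console and RMA) and deposited log2 group averages, SDs and expression flags with a decimal comma. The table's fold changes, p-values and false discovery rates are the authors' own comparison and were not used. Because single arrays were not in the table, the variances of the groups were averaged (residual degrees of freedom 6), then shrunk to a common prior by the squeezeVar function of limma 3.58.1 in R 4.3.3 (prior SD 0.284, 5.85 prior degrees of freedom). P-values are two-sided, adjusted by Benjamini-Hochberg over 22206 probe sets, and the procedure was tested on simulated data. Intervals are at 95%.

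The 10 members, the comparison lists and the marker lists were chosen with earlier results of these data known. Named genes are the members, the target of the sh-RNA, the 3 most changed genes of each comparison list, those of any list past 2-fold with an unadjusted p under 0.05, and 7 fixed names; *Dcun1d1*, *Ube2f*, *Spsb3*, *Asb9*, the 4 fibre markers, *Myh8*, the targets without a difference past the threshold and the neighbours were named after their values were seen. One gene of the target list is not reported here. Promoter windows are from RefSeq (GRCm38.p6). The alternatives were 8 other settings of the fit, 2 other thresholds and the probe set with the lowest mean. Arrays have no depth; their number limits the precision.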

Additional observations from a re-analysis of the deposited data

How the results depend on the processing

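No paired analysis was possible because the table holds group averages, so the replicate block and the fits without each replicate were not run, and whether 1 muscle carries a value cannot be seen. Each member has 1 probe set, so choosing the lowest mean changed nothing. With a trend on signal and robust fitting, 3 members (*Asb5*, *Asb11* and *Asb14*) were lower at an adjusted p under 0.05, against 0 in the report. That setting called more probe sets in all, 189 against 61, and 0.333% against 0.0946% with a lower average. In the fit of the report, 2 members (*Asb5* and *Asb14*) were lower at an adjusted p under 0.1, against 0.324% of all probe sets. With 1.5-fold in place of 2-fold in that fit, 4 were lower, against 1, where 2.25% and 0.257% of all probe sets were. The adjusted p of *Asb5* ran from 0.0124 to 0.429 over the settings, that of *Asb14* from 0.0332 to 0.429, that of *Asb11* from 0.0446 to 0.429 and that of *Asb15* from 0.0581 to 0.452. No member changed direction in the settings run. The *Mytho* difference of -2.31 had an adjusted p of 0.173 without moderation and 0.363 with unequal variances, where 2 probe sets passed in all. At an unadjusted p under 0.05 in either direction, 2664 of all 22206 probe sets passed in the fit of the report. The number was 2328 without moderation, 2001 with unequal variances and 2716 with the trend. It was 2678 when centred on the fibre markers and 2725 when centred on the brightest probe sets. At that threshold, *Asb4* was lost without moderation (unadjusted p 0.0564) and with unequal variances (unadjusted p 0.0776), which left 4 members lower in place of 5. Centring on the fibre markers left 0 other *Asb* genes lower in place of 1. Unequal variances left 1 core gene lower (*Cul5*) in place of 2 and 0 SOCS-box genes higher in place of 1. The trend gave 2 core genes higher (*Rnf7* and *Ube2m*), 2 SOCS-box genes higher (*Cish* and *Spsb1*) and 2 Kelch genes lower (*Klhl31* and *Klhl38*), and *Flnc* as 1 target at an adjusted p under 0.05. *Spsb3* was 1 lower SOCS-box gene without moderation or centred on the brightest probe sets, in place of 0. The cause of these changes was not tested. The trend also brought *Lmod2* under an adjusted p of 0.05.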
